A study of Mus musculus with 16 samples.

Results

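The genes of the mitochondrial respiratory chain and ATP synthase were chosen by symbol, as those starting with mt- and those of the Ndufa, Ndufb, Ndufc, Ndufs, Ndufv, Cox4 to Cox8, Uqcr and Atp5 families, with Cyc1, Cycs and Sdha to Sdhd. This rule found 108 of the 20072 genes in the deposited table. The mitochondrial genome encodes 13 of them and nuclear chromosomes encode 95. By their known roles, the nuclear genes were 81 subunits, 9 assembly factors (Ndufaf1 to Ndufaf8 and Cox7a2l) and 5 pseudogenes or copies. Complex I had 7 mitochondrial and 36 nuclear subunit genes, complex III 1 and 9, complex IV 3 and 14, and ATP synthase (complex V) 2 and 17. Complex II had 4 nuclear subunit genes and cytochrome c had 1. Of the 108 genes, 106 passed the filter for testing, and Cox7b2 and Ndufb11b did not.

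RNA was measured in 16 bulk libraries of small intestine from untreated Tph1-CFP mice of 8 to 16 weeks, with 5000 sorted cells pooled in each. The mice carry a cyan fluorescent reporter named for Tph1, the rate-limiting enzyme of serotonin synthesis outside the brain, which marks enterochromaffin (EC) cells, the serotonin-making endocrine cells of the gut lining. The 4 groups, with 4 libraries each, were CFP-positive cells of the villus (villus EC), CFP-negative epithelial cells of the villus (villus epi), CFP-positive cells of the crypt (crypt EC) and CFP-negative epithelial cells of the crypt (crypt epi). All groups share genotype, age range and lack of treatment, the EC gate rests on the reporter alone, and each epi group is a mixture of the other epithelial cell types. The labels do not say which libraries came from the same mouse, so p-values measure the spread between these libraries.

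As background, complexes I to IV pass electrons from NADH and succinate to oxygen and complexes I, III and IV pump protons, and ATP synthase uses the proton gradient to make ATP. Most subunits are encoded in the nucleus and imported, whereas the mitochondrial genome encodes core subunits of complexes I, III, IV and V and none of complex II or cytochrome c. Mitochondrial messenger RNAs are cut from long transcripts of either strand of the circular genome, so that neighbouring genes share a precursor, while each nuclear gene has its own promoter. Absorptive enterocytes, the main cell of the villus, are rich in mitochondria.

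The summed level of 8 EC markers ran from 50524 to 60590 in villus EC and from 527 to 649 in villus epi, and from 55643 to 60410 in crypt EC and from 143 to 184 in crypt epi. Enterocyte markers summed to 100332 to 148479 in villus epi and to at most 9170 in any other library. Paneth cell markers summed to 180386 to 210067 in crypt epi and to at most 8942 in any other library. The deposited values are FPKM, fragment counts scaled by transcript length and library size. Their column sums lay between 731415 and 1415120 and do not give each library's depth, which is unknown. Villus epi replicate 2 stood apart, with a mean correlation of 0.812 across all genes with its own group and of 0.902 over the 94 mitochondrial and nuclear subunit genes, against 0.956 to 0.966 over these 94 for the other villus epi libraries. The counts of members called and the values it moves most are given with and without it.

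Mitochondrially encoded messenger RNAs were far more abundant in villus epi than in the other groups, and nuclear subunit messenger RNAs were not raised to match. Per library, the 13 mitochondrial genes took 2.41%, 2.26%, 2.48% and 2.23% of the column total in villus EC, and 14.9%, 5.26%, 10.9% and 12.01% in villus epi. In the crypt they took 4.32%, 2.97%, 3.30% and 2.95% in crypt EC and 3.80%, 3.24%, 4.08% and 3.58% in crypt epi. All 4 villus epi libraries lay above the other 12, the lowest being replicate 2, and the EC and epi libraries of the crypt overlapped. The 81 nuclear subunit genes together took 3.39% ± 0.175 of the total in villus EC, 5.05% ± 0.785 in villus epi, 4.39% ± 0.307 in crypt EC and 5.09% ± 0.170 in crypt epi (SD, n = 4 each). Fewer cells of a type and less RNA per cell cannot be told apart in such bulk samples.

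**Figure D1:**
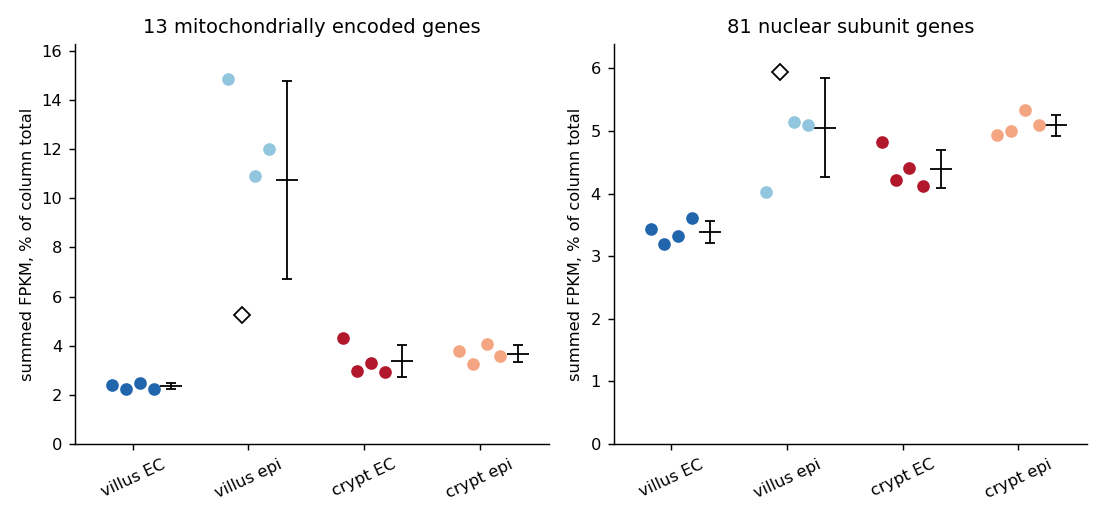
Summed FPKM of the 13 mitochondrially encoded genes (left) and of the 81 nuclear subunit genes (right), as a percentage of the column total, by group. Points are libraries, the open black diamond is villus epi replicate 2, and the bar beside each group is the mean ± SD (n = 4). The mitochondrial share is highest in villus epi, at 5.26% to 14.9%, and the nuclear share is lowest in villus EC.

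Set complex by complex, the mitochondrial excess of villus epi was seen in each complex that has mitochondrial subunits. The mean FPKM of the mitochondrial genes of complex I was 1.98 ± 0.128 times that of its nuclear genes in villus EC, 6.47 ± 2.69 times in villus epi, 1.95 ± 0.190 times in crypt EC and 2.05 ± 0.269 times in crypt epi (SD, n = 4 each). For complex III, where mt-Cytb is the only mitochondrial gene, the ratios were 4.41, 14.5, 5.72 and 5.34 in the same order of groups. For complex IV they were 6.81, 20.5, 7.18 and 6.24, and for ATP synthase 5.05, 16.6, 6.34 and 5.95. In villus epi replicate 2 the ratios were 3.85 for complex I, 5.11 for complex III, 7.20 for complex IV and 5.94 for ATP synthase. The other 3 villus epi libraries ran from 5.63 to 10.2 for complex I, 13.7 to 23.2 for complex III, 19.2 to 34.2 for complex IV and 15.8 to 26.5 for ATP synthase. Replicate 2 thus stood within the range of the other 3 groups for complexes III, IV and V, and above them for complex I. Complex II, which has no mitochondrial gene, averaged 164 ± 7.31 FPKM per gene in villus EC, 665 ± 65.4 in villus epi, 244 ± 12.4 in crypt EC and 560 ± 13.1 in crypt epi (SD, n = 4 each). Beside this, the enterocyte marker sum was lowest in replicate 2 among villus epi libraries, but the single markers split. Apoa1, Apoa4, Apob, Lct, Sis, Fabp2 and Anpep were lowest in replicate 2. Alpi (7739 FPKM), Fabp1 (63757) and Slc5a1 (3232) were highest there. The part of enterocyte content in the mitochondrial ratios was not tested.

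**Figure D2:**
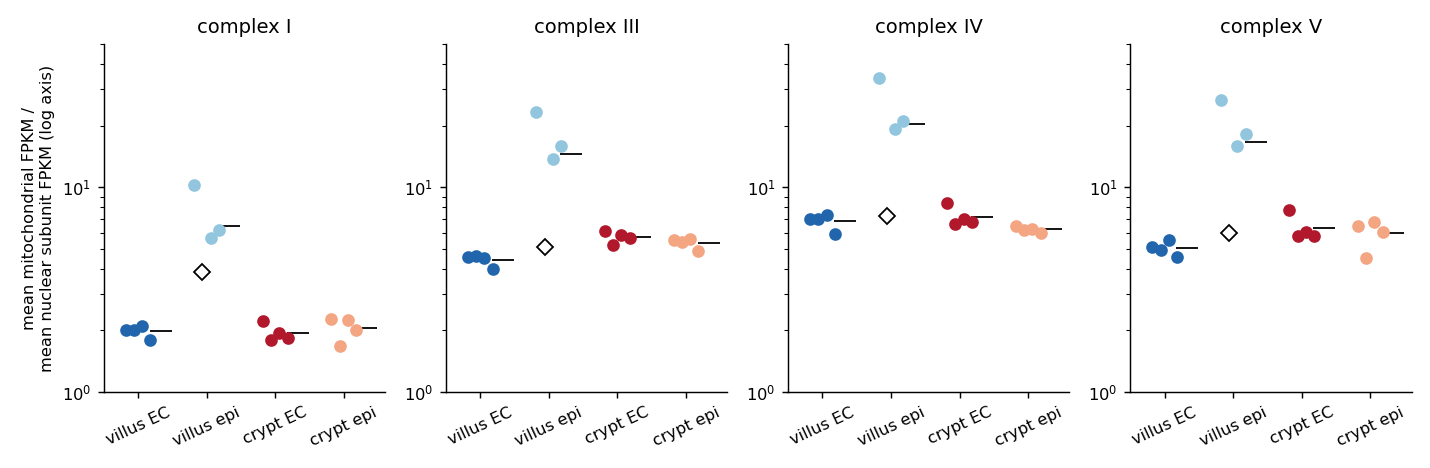
Mean FPKM of the mitochondrially encoded genes over mean FPKM of the nuclear subunit genes of the same complex, on a log axis, for complexes I, III, IV and V by group. Points are libraries, the open black diamond is villus epi replicate 2 and the dash is the group mean. Villus epi is highest in all 4 complexes, while replicate 2 lies at 3.85, 5.11, 7.20 and 5.94.

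In the crypt, most nuclear subunit genes of each complex were lower in the EC gate than in its CFP-negative counterpart, cytochrome c being the exception. Of 80 tested nuclear subunit genes, 66 were lower and 1 was higher in crypt EC (limma, adjusted p below 0.05), with a median log2 difference of -0.79, where over all 14089 tested genes 20.0% were lower, 23.2% were higher and the median was 0.05. By complex, 28 of 36 were lower for complex I (median -0.63), 4 of 4 for complex II (-1.13), 8 of 9 for complex III (-0.87), 11 of 13 for complex IV (-0.89) and 15 of 17 for ATP synthase (-0.89). The count depends on scaling: with every library brought to the same total, which moves the all-gene median to 0.51, 27 were lower and 7 higher (median -0.25). Over all 14337 genes tested with equal totals 1432 were lower and 6119 higher. Relative to the all-gene median, the nuclear subunits stood at -0.84 as deposited and at -0.76 with equal totals.

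Of the 13 mitochondrial genes, 4 were lower in crypt EC than in crypt epi and 0 were higher, where 20.0% of all tested genes were lower and 23.2% higher. The median was -0.59, and 6 had an unadjusted p below 0.05. Those called were mt-Nd4 (-0.59 ± 0.11 (SE), adjusted p = 0.000518), mt-Co1 (-0.56 ± 0.15, adjusted p = 0.00634), mt-Nd1 (-0.73 ± 0.21, adjusted p = 0.0108) and mt-Nd2 (-0.47 ± 0.14, adjusted p = 0.0144). Of mt-Nd4, a core subunit of the proton-pumping membrane arm of complex I, crypt EC libraries held 513, 390, 449 and 399 FPKM, and crypt epi libraries 699, 579, 675 and 670 FPKM. The groups did not overlap for mt-Nd4, whereas mt-Nd2 had 212, 168, 185 and 165 in crypt EC and 298, 194, 263 and 264 in crypt epi, which overlap. With equal totals 0 of the 13 were called in either direction (median -0.05), and without villus epi replicate 2, which enters through the shared spread alone, 11 were lower. With the 2 crypt groups alone 11 were lower, and with array weights 12. The counts over all tested genes moved too. Lower were 2824 of 14089 in the main fit, 1432 of 14337 with equal totals and 4291 of 13936 without villus epi replicate 2. Of 14089 genes, 4406 were lower with the 2 crypt groups alone and 4751 with array weights.

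Among complex I genes in the crypt, Ndufv1, which encodes the subunit that binds NADH and flavin, fell most, to 165, 145, 155 and 133 FPKM in crypt EC, against 362, 385, 347 and 356 in crypt epi (log2 difference -1.28 ± 0.16, adjusted p = 1.01e-05). Ndufs1 (-0.99) and Ndufv2 (-0.87), which encode other core subunits of the electron-carrying arm, were lower too. The accessory subunit gene Ndufa1 was not called (0.01, adjusted p = 0.967). In complex II, Sdhb, which encodes the iron-sulfur subunit of succinate dehydrogenase, stood at 321, 278, 301 and 279 in crypt EC and 742, 794, 729 and 742 in crypt epi (-1.35 ± 0.12, adjusted p = 2.67e-07). Sdha (-1.11), Sdhc (-1.05) and Sdhd (-1.15) encode the flavin subunit and both membrane anchors and were also lower. Every crypt EC library lay below every crypt epi library for these 4 genes.

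In complex III, Uqcrfs1, which encodes the Rieske iron-sulfur protein, had 173, 165, 179 and 158 FPKM in crypt EC and 465, 461, 450 and 474 in crypt epi (-1.45 ± 0.09, adjusted p = 2.4e-09). Cyc1, which encodes cytochrome c1, fell by 1.36 on the log2 scale, Uqcrc1 by 1.34 and Uqcrc2 by 0.96. In ATP synthase, Atp5o, a gene for the peripheral stalk, had 363, 308, 342 and 281 in crypt EC and 838, 892, 816 and 855 in crypt epi (-1.40 ± 0.20, adjusted p = 3.2e-05). The genes for the alpha, beta and gamma subunits of its catalytic head were lower as well, Atp5a1 by a log2 difference of -1.11, Atp5b of -1.06 and Atp5c1 of -0.62. None of these groups overlapped.

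Cycs and Cox7a2l were the called exceptions in the crypt. Cycs encodes cytochrome c, which carries electrons from complex III to complex IV, and had 201, 269, 294 and 309 FPKM in crypt EC and 183, 149, 161 and 171 in crypt epi. All crypt EC libraries were higher, replicate 1 by the least (0.68 ± 0.13, adjusted p = 0.000424). Cox7a2l encodes a factor that joins complexes III and IV in supercomplexes, and its values were 276, 273, 275 and 274 in crypt EC and 104, 100, 104 and 99.2 in crypt epi. The groups were far apart and each was tight (1.42 ± 0.22, adjusted p = 8.73e-05). Cycs per Cyc1, a ratio of levels per length, was 0.704 ± 0.166 in crypt EC and 0.168 ± 0.0196 in crypt epi (SD, n = 4 each). Both genes have near-identical copies elsewhere in the genome.

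Of the 9 assembly factors, 3 were lower in crypt EC and 1, Cox7a2l, was higher (median -0.55), where 20.0% of all tested genes were lower and 23.2% higher. Ndufaf2 (-0.92, adjusted p = 0.000454), Ndufaf4 (-0.90) and Ndufaf6 (-0.87), which act in building complex I, were those lower. With equal totals 0 were lower and 2 higher, where 1432 of 14337 tested genes were lower and 6119 higher. Without villus epi replicate 2 the counts were 7 and 1, where 4291 of 13936 tested genes were lower and 4703 higher. Among the copies, Ndufa12-ps, Ndufb4c and Ndufs5-ps were lower.

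**Figure D3:**
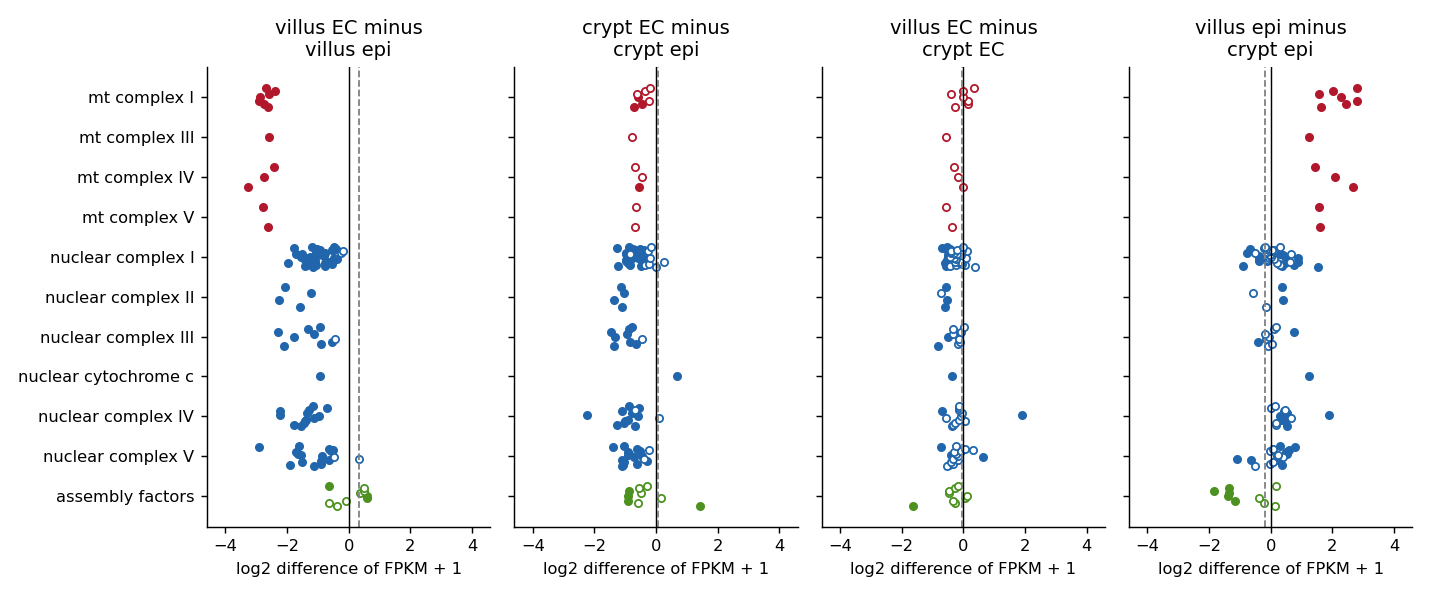
Log2 differences of FPKM + 1 of each tested member in 4 comparisons, by complex and by genome of origin. Filled points passed the test (adjusted p below 0.05) and open points did not, the black line is 0 and the dashed grey line is the median of all tested genes. Mitochondrial genes lie between -3.26 and -2.40 in villus EC against villus epi, and between 1.25 and 2.81 in villus epi against crypt epi.

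In the villus the same comparison reached nearly every member. Set against villus epi, villus EC had lower levels of all 13 mitochondrial genes, with log2 differences from -3.26 to -2.40 and a median of -2.68, and 75 of 80 nuclear subunit genes were lower and 0 higher, with a median of -1.13. Over all tested genes 21.6% were lower and 40.6% higher, and the median was 0.33. An unadjusted p below 0.05 was reached by 13 mitochondrial and 76 nuclear subunit genes. By complex, 34 of 36 nuclear genes were lower for complex I (median -1.04), 4 of 4 for complex II (-1.82), 8 of 9 for complex III (-1.11), 13 of 13 for complex IV (-1.38) and 15 of 17 for ATP synthase (-0.91). Without villus epi replicate 2 the mitochondrial genes were still all lower (median -3.03), as were 79 nuclear genes. Over all 13936 genes tested without that library 3692 were lower and 6745 higher. With equal totals 13 mitochondrial and 46 nuclear genes were lower, and 3 nuclear genes were higher, where 1902 of 14337 tested genes were lower and 7961 higher. The libraries of this comparison carry other differences too: the enterocyte marker sum was 1862 to 2831 in villus EC and 100332 to 148479 in villus epi, and the part of cell-type mixture in the member values was not tested.

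Among mitochondrial genes in the villus, mt-Co1, the catalytic core of cytochrome c oxidase, had 2187, 2301, 2517 and 1983 FPKM in villus EC and 28978, 17446, 19410 and 21498 in villus epi (-3.26 ± 0.15, adjusted p = 5.77e-11). For mt-Co3, another core subunit of that complex, the values were 5797, 6048, 6695 and 6078 in villus EC and 65510, 7127, 49178 and 51857 in villus epi. All villus epi libraries were higher for both genes, but for mt-Co3 replicate 2 stood just above villus EC (-2.43 ± 0.49, adjusted p = 0.000453, and -3.16 without it). mt-Nd3 (-2.90), mt-Nd4 (-2.89), mt-Atp8 (-2.78), mt-Nd2 (-2.76), mt-Co2 (-2.74) and mt-Nd6 (-2.68) followed mt-Co1 in size. Smaller were mt-Atp6 (-2.63), mt-Nd1 (-2.63), mt-Cytb (-2.58), mt-Nd4l (-2.57) and mt-Nd5 (-2.40), all with adjusted p values of at most 4.71e-06.

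Of the nuclear subunits in the villus, Atp5o was at 177, 194, 188 and 219 FPKM in villus EC and at 1070, 2542, 1320 and 1335 in villus epi (-2.92 ± 0.20, adjusted p = 3.95e-09). Uqcrfs1 was at 153, 158, 158 and 169 in villus EC and at 694, 813, 853 and 780 in villus epi (-2.29 ± 0.09, adjusted p = 7.66e-12). For Sdhb the values were 194, 190, 196 and 238 in villus EC and 800, 1220, 1021 and 950 in villus epi (-2.27 ± 0.12, adjusted p = 2.96e-10). No library of either group overlapped with the other for these genes. Ndufa5 (-1.97), a peripheral-arm accessory gene, was the complex I gene with the largest fall, followed by Ndufv1 (-1.77), and Cox7b (-2.22) and Cox4i1 (-1.56), both accessory subunits of complex IV, fell too. The c-ring gene Atp5g2 (0.34, adjusted p = 0.155) was the only nuclear subunit gene with a positive difference.

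Cycs went with the other genes in the villus, at 203, 198, 198 and 226 FPKM in villus EC and 362, 394, 394 and 423 in villus epi (-0.93 ± 0.13, adjusted p = 1.04e-05), although with equal totals this was -0.29 and not called. Cox7a2l had 83.5, 75.8, 85.1 and 106 in villus EC and 74.5, 209, 102 and 100 in villus epi, the highest being replicate 2. It was not called (-0.37 ± 0.22, adjusted p = 0.166), and its difference was 0.26 with equal totals and -0.65, called, with median-ratio scaling. Of the 9 assembly factors, Ndufaf3 (0.59) and Ndufaf4 (0.60) were higher and Ndufaf8 (-0.63) was lower in villus EC, with a median of 0.37. Over all tested genes 40.6% were higher and 21.6% lower, and the median was 0.33, close to that of these factors. With equal totals 6 were higher and 0 lower, where 7961 of 14337 tested genes were higher and 1902 lower. With median-ratio scaling 0 were higher and 3 lower, where 4727 of 14031 tested genes were higher and 3729 lower. Without villus epi replicate 2, 4 were higher and 1 lower, where 6745 of 13936 tested genes were higher and 3692 lower.

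The difference between EC and epi cells was larger in the villus than in the crypt for 12 of the 13 mitochondrial genes, by the interaction of site and cell type. The interaction is the villus difference minus the crypt difference, so a negative value means a lower EC level relative to epi in the villus. It was negative and called for 12 mitochondrial genes, positive for 0, with a median of -2.12, and mt-Co3 missed the threshold (-1.73 ± 0.69, adjusted p = 0.0548). Of 80 nuclear subunit genes 29 were negative and 1, Atp5g1, was positive (median -0.43), where 16.0% of all tested genes were negative, 26.9% positive and the median was 0.21. Without villus epi replicate 2 these counts were 13 mitochondrial, and 48 negative and 2 positive nuclear genes. Over all 13936 genes tested in that setting 3352 were negative and 5211 positive. Cycs (-1.60 ± 0.18, adjusted p = 4.24e-06), Atp5o (-1.53), Ndufa1 (-1.16) and Cox7b (-1.13) were among the nuclear genes called negative. Cox6b2, with 1.27 to 11.996 FPKM in all libraries, had -1.20 (adjusted p = 0.0266). Assembly factors went mostly the other way, with 4 positive, such as Ndufaf4 (1.502 ± 0.34, adjusted p = 0.00247) and Ndufaf6 (1.36), and 7 without villus epi replicate 2, and 1 negative with and without it, Cox7a2l (-1.79 ± 0.31, adjusted p = 0.0003).

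Within EC cells, 25 of 80 nuclear subunit genes were lower in the villus, and the mitochondrial genes were not called. No mitochondrial gene was called, higher or lower, in villus EC against crypt EC, 0 had an unadjusted p below 0.05, and the median was -0.18. The counts under alternatives ran from 0 to 3 lower, and without villus epi replicate 2 there were 3 lower and 1 higher. Of the nuclear subunits 25 were lower and 2 higher (median -0.30), where 16.2% of all tested genes were lower, 10.3% higher and the median was -0.05. Without villus epi replicate 2, which enters this comparison through the shared spread alone, 45 were lower and 4 higher. Over all 13936 genes tested in that setting 3848 were lower and 2694 higher. With equal totals 50 were lower and 1 higher, where 3502 of 14337 tested genes were lower and 1143 higher. Those lower with all libraries were 13 of complex I, 3 of complex II, 2 of complex III, 2 of complex IV, 4 of ATP synthase and Cycs. Cyc1 was at 224, 196, 202 and 241 FPKM in villus EC and 424, 381, 383 and 356 in crypt EC (-0.84 ± 0.10, adjusted p = 1.73e-05). Sdhb (-0.53), Sdhd (-0.56), Sdha (-0.60), Ndufv1 (-0.70), Cox7b (-0.71) and Atp5o (-0.73) fell by similar amounts. The largest fall of any member was that of Cox7a2l, at 83.5, 75.8, 85.1 and 106 FPKM in villus EC and 276, 273, 275 and 274 in crypt EC, with no overlap (-1.65 ± 0.22, adjusted p = 4.79e-05). The call of Cycs (-0.36 ± 0.13, adjusted p = 0.0462) was lost with median-ratio scaling (-0.29).

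Cox7a1 (ENSMUSG00000074218, chr7:30184144-30186078, plus strand, mm10) and the c-ring gene Atp5g3 were the 2 nuclear subunit genes called higher in villus EC than in crypt EC. Cox7a1 encodes the isoform of complex IV subunit 7a that is best known from heart and skeletal muscle, and Cox7a2 encodes the isoform found in most tissues. Cox7a1 had 204, 199, 195 and 197 FPKM in villus EC, 753, 1222, 931 and 918 in villus epi, 37.2, 63.4, 58.5 and 53.6 in crypt EC, and 268, 268, 211 and 270 in crypt epi. The villus libraries of each cell type lay above its crypt libraries, and each EC group lay below its epi group. The log2 difference was 1.91 ± 0.17 for villus EC against crypt EC (adjusted p = 5.89e-07) and 1.89 ± 0.17 for villus epi against crypt epi (adjusted p = 1.18e-07). Against epi cells it was -2.24 in the villus (adjusted p = 1.13e-08) and -2.26 in the crypt (adjusted p = 2.65e-08), and the interaction was 0.02 (adjusted p = 0.96). These 4 directions held under equal totals and median-ratio scaling. Muscle marker genes summed to at most 2.24 in any library.

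Cox7a2 varied less, with 379, 428, 470 and 477 FPKM in villus EC, 881, 1294, 1152 and 1148 in villus epi, 490, 445, 435 and 419 in crypt EC, and 781, 751, 766 and 766 in crypt epi. Cox7a1 per Cox7a2 was 0.458 ± 0.0588 in villus EC, 0.852 ± 0.0662 in villus epi, 0.120 ± 0.0301 in crypt EC and 0.332 ± 0.0380 in crypt epi (SD, n = 4 each). No groups overlapped in this ratio. Of other complex IV genes with a tissue-restricted partner, Cox6a1, Cox6b1, Cox8a, Cox4i1 and Ndufa4 were lower in EC cells at both sites, and Cox6b2 was at 11.996 FPKM or less and Cox7b2 at 1.94 or less in every library. Of the 13 tested complex IV subunit genes, Cox7a1 alone differed by more than 1 log2 unit between villus EC and crypt EC.

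**Figure D4:**
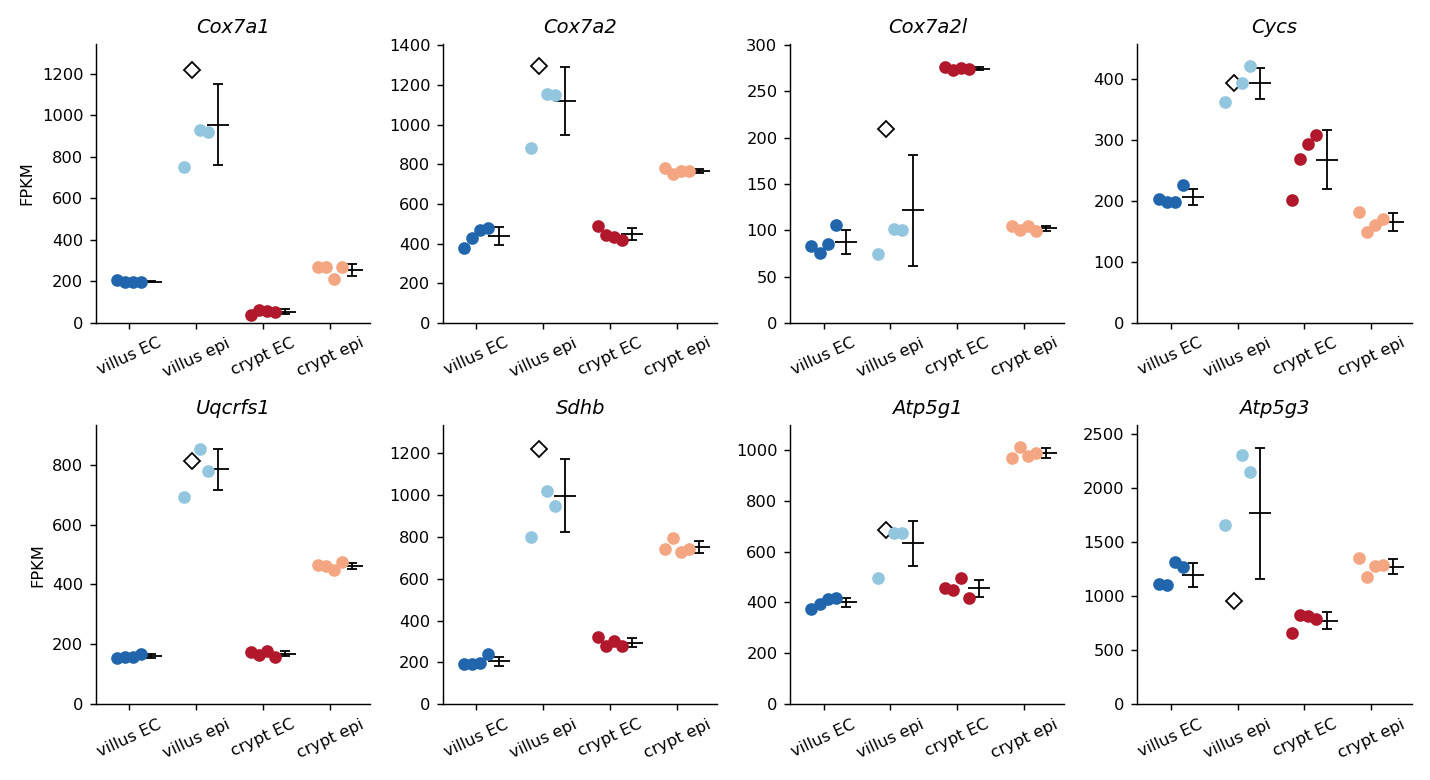
FPKM of 8 nuclear genes by group, each panel with its own axis from 0. Points are libraries, the open black diamond is villus epi replicate 2, and the bar beside each group is the mean ± SD (n = 4). Cox7a1 is at 195 to 204 in villus EC against 37.2 to 63.4 in crypt EC, and Cox7a2l is near 275 only in crypt EC.

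The c-ring of ATP synthase is built from 1 protein encoded by 3 genes, Atp5g1, Atp5g2 and Atp5g3, which differ in the part that is cut off on import. Atp5g3 made up 71.9% ± 1.28 of their summed level in villus EC, 70.6% ± 8.92 in villus epi, 58.7% ± 3.49 in crypt EC and 53.7% ± 1.48 in crypt epi (SD, n = 4 each), and the villus epi share was 75.1% without replicate 2. Atp5g1 made up 24.1%, 27.2%, 34.8% and 41.7% in the same order of groups, and 22.7% in villus epi without replicate 2. Per library, Atp5g3 had 1110, 1099, 1312 and 1274 FPKM in villus EC and 654, 825, 815 and 786 in crypt EC, with no overlap (0.64 ± 0.21, adjusted p = 0.0323). Atp5g1 had 498, 685, 675 and 672 in villus epi and 970, 1014, 978 and 990 in crypt epi, again with no overlap (-0.66 ± 0.11, adjusted p = 7.82e-05). Atp5g2 was also lower in villus epi than in crypt epi (-1.08 ± 0.20, adjusted p = 0.000302). These shares leave out near-identical copies of Atp5g1 (Gm10039) and Atp5g2 (Gm10175), and with them the order of gene averages turns in the crypt. For single crypt EC libraries it was split. Atp5g1 with its copy was at 852, 824, 907 and 768 FPKM there, below Atp5g3 in replicates 2 and 4. Atp5g1 with its copy averaged 838 FPKM in crypt EC and 1724 in crypt epi, above Atp5g3 at 770 and 1274, whereas in the villus it averaged 706 in villus EC and 966 in villus epi, below Atp5g3 at 1199 and 1768. In villus epi replicate 2, Atp5g1 with its copy was at 1090 FPKM and above Atp5g3, as in the crypt averages.

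Among other epithelial cells, villus against crypt set the mitochondrial and the nuclear genes apart. All 13 mitochondrial genes were higher in villus epi than in crypt epi, by 1.25 to 2.81 log2 units with a median of 2.03, whereas of 80 nuclear subunit genes 28 were higher and 9 lower, with a median of 0.16. Over all tested genes 19.6% were higher, 35.4% were lower and the median was -0.19. The split of nuclear genes turned with scaling, as the counts over all genes moved too. With equal totals 7 were higher and 23 lower, where of all 14337 tested genes 1976 were higher and 5978 lower. With median-ratio scaling 38 were higher and 4 lower, where of all 14031 tested genes 3340 were higher and 4313 lower. The split of mitochondrial genes did not turn, with 13 higher under both scalings. Without villus epi replicate 2 the counts were 13 mitochondrial, and 36 higher and 10 lower nuclear genes. Over all 13936 genes tested in that setting 3554 were higher and 5828 lower. This comparison shares its villus epi and crypt epi libraries with the EC comparisons above, so the values are not independent of them. The crypt epi libraries also held the Paneth marker sums given above and the villus epi libraries the enterocyte marker sums, and the part of this shift in cell types was not tested.

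Among mitochondrial genes, mt-Nd6, a complex I gene and the only one on the minus strand (chrM:13552-14070), had 1314, 3201, 983 and 1076 FPKM in villus epi and 245, 153, 220 and 222 in crypt epi (2.81 ± 0.28, adjusted p = 4.96e-07). mt-Nd3 had 470, 255, 327 and 378 in villus epi and 59.1, 35.5, 48.4 and 56.6 in crypt epi (2.81 ± 0.20, adjusted p = 9.09e-09). mt-Cytb, the core of complex III, had 21701, 5423, 16602 and 18640 in villus epi and 5997, 5904, 6048 and 5347 in crypt epi (1.25 ± 0.31, adjusted p = 0.00276). The groups did not overlap for mt-Nd6 and mt-Nd3, and for mt-Cytb replicate 2 fell among the crypt epi libraries. With its near-identical copy Gm28438 added, mt-Nd3 was at 337 in replicate 2, within the crypt epi range of 222 to 433, so that separation was lost, while the other villus epi libraries were at 1580 to 2078. Without replicate 2 the differences were 2.43 for mt-Nd6, 2.96 for mt-Nd3 and 1.70 for mt-Cytb. The remaining genes stood at 2.67 for mt-Co1, 2.44 for mt-Nd2, 2.29 for mt-Nd4, 2.09 for mt-Co2, 2.03 for mt-Nd5, 1.62 for mt-Nd1, 1.59 for mt-Atp6, 1.56 for mt-Atp8 and mt-Nd4l and 1.43 for mt-Co3, which was 2.16 without replicate 2.

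The nuclear genes that were higher in villus epi included Ndufa1, an accessory gene of complex I, with 2186, 4282, 2994 and 3082 FPKM in villus epi and 1011, 1094, 990 and 1081 in crypt epi (1.55 ± 0.15, adjusted p = 4.52e-07), and Cycs (1.24 ± 0.13, adjusted p = 5.82e-07). Uqcrfs1 (0.76), Atp5o (0.80) and Sdhb (0.39) were also higher, but the calls of Atp5o (0.50) and Sdhb (0.09) were lost with equal totals. Lower in villus epi were Ndufa10 (-0.89, adjusted p = 0.0151), where replicate 2 held 69.2 FPKM and the other villus epi libraries 198 to 238 (-0.47 without it), and Uqcr11 (-0.42). Core genes such as Sdha (-0.14, adjusted p = 0.588), Uqcrc1 (-0.06, adjusted p = 0.744), Cyc1 (-0.10, adjusted p = 0.449) and Atp5a1 (-0.51, adjusted p = 0.167) were not called. By complex, 10 nuclear genes were higher and 6 lower for complex I, 2 and 0 for complex II, 1 and 1 for complex III, 7 and 0 for complex IV, and 7 and 2 for ATP synthase. Of the 9 assembly factors 5 were lower and 0 higher in villus epi (median -1.17), where 35.4% of all tested genes were lower and 19.6% higher. Without replicate 2, 7 were lower, where 5828 of 13936 tested genes were lower. Among those lower with all libraries was Ndufaf6, at 7.51, 33.03, 12.3 and 10.5 in villus epi and 47.9, 55.0, 57.0 and 44.2 in crypt epi (-1.84 ± 0.30, adjusted p = 9.72e-05).

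Villus epi replicate 2 differed from its group unevenly across genes. Among mitochondrial genes the median coefficient of variation was 41.4% in villus epi and 14.98% in villus epi without replicate 2, against 7.27% in villus EC, 14.5% in crypt EC and 14.99% in crypt epi. Of the 13 mitochondrial genes, 10 were below the range of the other 3 villus epi libraries, 2 were within it and 1 was above, and of the 81 nuclear subunit genes 27 were below, 20 within and 34 above. Over all tested genes 42.3% were below and 41.9% above. In mt-Co3 it had 7127 FPKM, where the other 3 had 49178 to 65510, while mt-Co1 held 17446 against 19410 to 28978. The level of mt-Co3 per mt-Co1 was 0.409 in it and 2.26 to 2.53 in the others, that of mt-Nd4l per mt-Nd4 was 0.202 against 0.564 to 0.651, and that of mt-Nd6 per mt-Nd5 was 4.26 against 0.923 to 1.00. The level of mt-Atp8 per mt-Atp6 was 0.314 in it and lay between 0.263 and 0.340 in all 16 libraries. Nuclear genes named here after their values were seen include Ndufc1 at 1757 (318 to 458 in the others), Cox7c at 2771 (744 to 1018), Atp5a1 at 271 (894 to 1000) and Atp5d at 295 (968 to 1153). In the same library the leukocyte marker sum was 88.8, the highest of all libraries. Most of it came from Lyz2 at 56.4 FPKM and Ptprc, which encodes the leukocyte protein CD45, at 24.6. Lyz2 was at 28.6 or more in every villus epi library. Cd8a (1.75), Cd3g (0.8), Jchain (3.95) and Adgre1 (0.2) were also highest there among villus epi libraries. Cd3e (0.7), Cd79a (0.1) and Gzma (0.3) were not. The stromal and endothelial marker sum was 30.5, the highest of villus epi, with Pecam1 at 23.1. The part of other cells in these values was not tested.

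**Figure D5:**
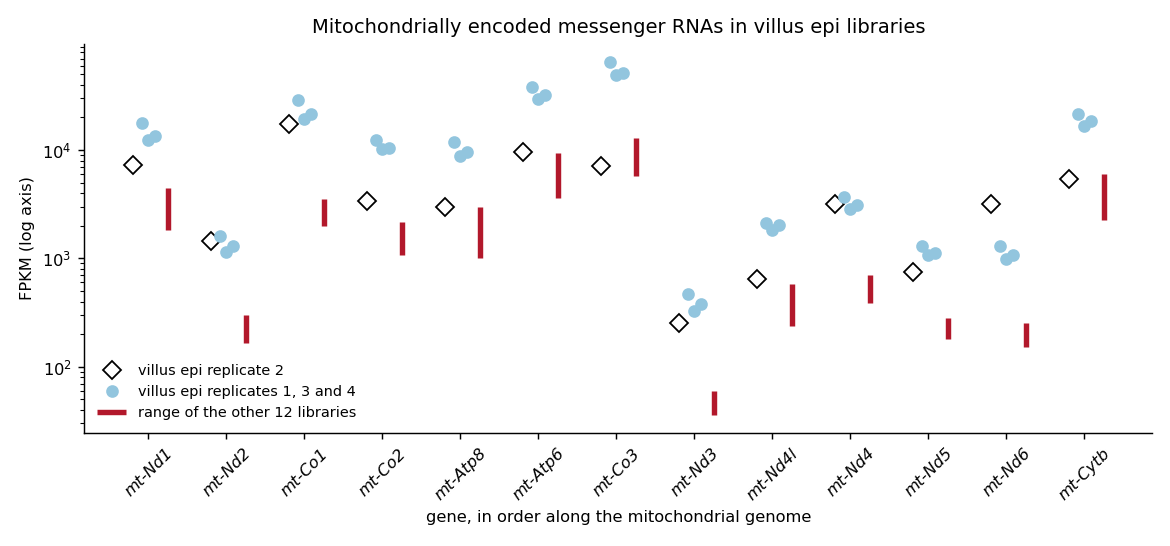
FPKM of the 13 mitochondrially encoded messenger RNAs in the villus epi libraries, on a log axis, in order along the mitochondrial genome. The open diamond is villus epi replicate 2, blue points are replicates 1, 3 and 4, and the red bars span the other 12 libraries. Replicate 2 is at 7127 for mt-Co3, within the red bar, and above replicates 1, 3 and 4 for mt-Nd6, at 3201.

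Neighbouring mitochondrial genes can share bases, which limits how reads are split between them. The end of mt-Atp8 and the start of mt-Atp6 overlap by 43 bases, 21.1% of mt-Atp8, and those of mt-Nd4l and mt-Nd4 by 7. On opposite strands, mt-Nd5 (chrM:11742-13565, plus strand) and mt-Nd6 (chrM:13552-14070, minus strand) overlap at their ends as well. The sequence around the first overlap is shown because it joins the pair whose ratio was steady in every library, with the shared bases in capitals (chrM:7912-7984, plus strand, GRCm38):
mt-Atp8 and mt-Atp6: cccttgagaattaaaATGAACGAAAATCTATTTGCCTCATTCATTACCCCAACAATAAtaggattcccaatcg

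Copies elsewhere in the genome limit single-gene values further. Near-identical copies were taken as annotated transcripts that match at 95% identity or more over at least 100 bases and 80% of the copy. Of the 13 mitochondrial genes 9 have such a copy and 5 have one in the deposited table, and of 81 nuclear subunit genes 24 have one and 13 have one in the table. The copy of mt-Co1 on chromosome 1, Gm29216, averaged 5405 FPKM in villus EC, 49600 in villus epi, 4397 in crypt EC and 5656 in crypt epi. These FPKM were above those of mt-Co1 itself, but the copy has 492 bases and mt-Co1 1545. As FPKM is scaled by length, this does not mean more fragments, and sums with copies mix short and full-length transcripts. With copies added, the mitochondrial share was 3.01% ± 0.192 in villus EC, 14.7% ± 4.40 in villus epi, 4.09% ± 0.787 in crypt EC and 4.31% ± 0.356 in crypt epi (SD, n = 4 each), so the order of groups was as before. Cycs with its copies Gm10053 and Gm10108 was at 1110, 1016, 1102 and 1199 in villus EC, 2543, 3542, 2964 and 2953 in villus epi, 1333, 1501, 1706 and 1601 in crypt EC and 1099, 1136, 1062 and 1144 in crypt epi. Crypt EC stayed above crypt epi in every library. Cox7a2l with its copy Gm6969 was at 476, 491, 506 and 467 in crypt EC and at 179, 170, 168 and 180 in crypt epi, also without overlap.

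The promoters of nuclear members are shown for genes that moved apart from or with the rest. RefSeq windows of 250 bases before to 50 after the start (GRCm38.p6) were matched to 76 of the 90 nuclear subunit and assembly genes. On either strand, the core of the NRF1 motif, CGCATGCG, was in 12 of them (15.8%), against 2.07% of 27025 genes with a window and 4.21% of 10355 tested genes. The ETS-family motif CCGGAAG was in 19 (25%), against 9.93% and 19.4%, and the YY1 motif AAGATGGC in 11 (14.5%), against 3.19% and 5.10%. The ERR motif TCAAGGTCA was in 2 (2.63%), against 0.466% and 0.309%, and TATAAA in 7 (9.21%), against 15.7% and 9.67%. A match describes letters in the window and shows no binding. Cycs (chr6:50566520-50566819, minus strand) holds an NRF1 core, Atp5j (chr16:84834927-84835226, minus strand), a peripheral-stalk gene lower in EC cells at both sites, holds an NRF1 core, a YY1 motif and an ETS motif in that order, and Cox7a1 (chr7:30183921-30184220, plus strand) and Cox7a2l (chr17:83514284-83514583, minus strand) hold none of the 5 motifs searched. Atp5j was chosen for its motifs, and its second RefSeq window is shown. Its first (chr16:84835576-84835875) holds none. The window of Cox7a2, whose levels were lower in EC cells at both sites, also holds none of the 5 motifs. Those of Uqcrc1, Cox6a1 and Atp5k hold an NRF1 core. Motif matches are in capitals:
Cycs: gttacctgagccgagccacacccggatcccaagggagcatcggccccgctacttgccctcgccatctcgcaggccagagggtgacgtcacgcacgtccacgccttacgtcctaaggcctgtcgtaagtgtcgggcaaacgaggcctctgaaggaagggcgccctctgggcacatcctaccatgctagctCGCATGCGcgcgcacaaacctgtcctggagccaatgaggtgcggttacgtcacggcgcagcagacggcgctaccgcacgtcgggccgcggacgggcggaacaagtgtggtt
Atp5j: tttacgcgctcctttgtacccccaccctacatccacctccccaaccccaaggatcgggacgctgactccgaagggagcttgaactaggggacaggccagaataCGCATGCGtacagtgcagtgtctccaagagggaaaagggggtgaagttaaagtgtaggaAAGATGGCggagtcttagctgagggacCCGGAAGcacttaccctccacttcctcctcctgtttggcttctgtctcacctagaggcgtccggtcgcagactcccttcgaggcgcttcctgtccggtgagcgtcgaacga
Cox7a1: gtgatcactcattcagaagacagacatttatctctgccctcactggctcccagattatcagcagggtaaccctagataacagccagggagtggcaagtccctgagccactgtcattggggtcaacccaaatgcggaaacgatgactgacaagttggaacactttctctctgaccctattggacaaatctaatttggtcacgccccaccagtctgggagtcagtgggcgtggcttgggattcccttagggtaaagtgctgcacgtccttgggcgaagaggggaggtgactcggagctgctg
Cox7a2l: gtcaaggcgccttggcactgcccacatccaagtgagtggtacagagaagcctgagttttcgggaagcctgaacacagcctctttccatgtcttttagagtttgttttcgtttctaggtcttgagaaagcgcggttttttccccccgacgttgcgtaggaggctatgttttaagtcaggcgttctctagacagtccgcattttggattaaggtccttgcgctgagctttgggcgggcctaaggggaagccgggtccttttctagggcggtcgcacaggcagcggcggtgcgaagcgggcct

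Other mitochondrial gene lists were counted in the same way. Of 14 citric acid cycle enzymes, 11 were lower and 0 higher in villus EC against villus epi (median -1.71), where 21.6% of all tested genes were lower and 40.6% higher. In crypt EC against crypt epi 11 were lower and 0 higher (median -1.05), where 20.0% of all tested genes were lower and 23.2% higher. When villus epi replicate 2 was left out, 14 were lower in the villus and 13 in the crypt. Over all 13936 genes tested in that setting 3692 and 4291 were lower. Idh3a, a subunit of isocitrate dehydrogenase, averaged 38.4 FPKM in villus EC and 305 in villus epi (-2.89 ± 0.19, adjusted p = 3.19e-09). Mdh2, mitochondrial malate dehydrogenase, averaged 569 in crypt EC and 1423 in crypt epi (-1.32 ± 0.09, adjusted p = 1.8e-08). With equal totals 10 were lower and 1 higher in the villus, and 7 were lower and 0 higher in the crypt. Over all 14337 genes tested in that setting 1902 were lower and 7961 higher in the villus, and 1432 and 6119 in the crypt. Of 12 tested genes for other electron donors and for carrier proteins, 8 were lower and 4 higher in villus EC, and 9 were lower and 2 higher in crypt EC, beside the same shares of all genes and with and without replicate 2. Among them, Slc25a4, which encodes the heart-type exchanger of ADP and ATP, was higher in EC cells, at 147 in villus EC and 6.63 in villus epi (4.29 ± 0.17, adjusted p = 9.65e-12) and at 103 in crypt EC and 17.7 in crypt epi (2.49 ± 0.17, adjusted p = 8.17e-09). The mitochondrial glycerol-phosphate dehydrogenase gene Gpd2 was lower in EC cells (-2.94 in the villus, -1.33 in the crypt).

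Genes for transcription and maintenance of mitochondrial DNA and stability of its RNA were mostly lower in villus epi than in crypt epi. Of 31 tested, 24 were lower and 2 higher in villus epi against crypt epi (median -1.42), where 35.4% of all tested genes were lower and 19.6% higher. In villus EC against villus epi 17 were higher and 4 lower (median 0.74), where 40.6% of all tested genes were higher and 21.6% lower. Without villus epi replicate 2 these counts were 26 and 2, and 20 and 6. With equal totals they were 26 and 1, and 21 and 1, and with median-ratio scaling 22 and 3, and 15 and 4. Of all 14337 genes tested with equal totals, 5978 were lower and 1976 higher in villus epi against crypt epi. In villus EC against villus epi 7961 of them were higher and 1902 lower. Median-ratio scaling gave 4313 lower and 3340 higher of 14031 in the first comparison, and 4727 higher and 3729 lower in the second. Without villus epi replicate 2 these were 5828 and 3554, and 6745 and 3692, of 13936. Trmt10c, part of the enzyme that cuts transfer RNAs out of mitochondrial transcripts, averaged 16.2 in villus EC and 3.46 in villus epi (1.97 ± 0.15, adjusted p = 1.49e-08), and Ssbp1, which binds single-stranded mitochondrial DNA, 123 and 36.4 (1.81). In the crypt 10 were lower and 0 higher in EC cells, against 4 lower and 3 higher with equal totals, and 19 lower and 4 higher without villus epi replicate 2. The all-gene counts were 2824 lower and 3264 higher of 14089, 1432 and 6119 of 14337, and 4291 and 4703 of 13936. Of 44 assembly factors outside the symbol rule, 18 were lower and 11 higher in villus EC (20 and 13 without replicate 2), beside the same 21.6% and 40.6% of all tested genes. With equal totals 6 were lower and 22 higher, where 1902 of all 14337 tested genes were lower and 7961 higher. Sco2, a copper chaperone of complex IV, averaged 9.61 in villus EC and 243 in villus epi (-4.51 ± 0.26, adjusted p = 5.93e-10), and 10.9 in crypt epi. Of 14 regulators of mitochondrial biogenesis, 6 were lower and 3 higher in villus EC (6 and 4 without replicate 2). With equal totals 3 were lower and 5 higher, each split beside the same shares or counts of all tested genes. In crypt EC 5 of them were lower and 2 higher (8 and 3 without replicate 2), where 20.0% of all tested genes were lower and 23.2% higher. Ppargc1a, a coactivator of respiratory genes and a member of that list, averaged 8.91 in villus EC and 48.2 in villus epi (-2.25 ± 0.23, adjusted p = 5.44e-07), and 5.55 in crypt EC and 17.4 in crypt epi (-1.50 ± 0.23, adjusted p = 8.19e-05).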

How the data were processed

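Gene-level FPKM values of 16 bulk libraries were used as the authors deposited them. Per the labels' protocols, full-length cDNA was amplified from 5000 sorted cells with SMART-Seq chemistry and made into Nextera XT libraries. Per the submitters' processing notes, bcl2fastq 2.20, kallisto, sleuth and mm10 were used; how the FPKM values were scaled is not given in the sources used here, and their column totals differ, so depth is unknown.

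Members were found by gene symbol and assigned to complexes by known role; Ndufa4 was counted under complex IV. The members and gene lists were chosen with earlier results of these data known. Values were tested on a log2(FPKM + 1) scale by a moderated linear model (limma 3.58.1, R 4.3.3, eBayes with trend), two-sided, over the 14089 of 20072 genes with FPKM of at least 1 in at least 4 libraries. All 16 libraries entered 1 model of 4 group means with no block, and p-values were adjusted by Benjamini-Hochberg over all tested genes, with a threshold of 0.05. Fold changes on this scale understate changes of low genes. The model was tested on simulated data with 200 changed genes. No 2 libraries held identical values. Sums, ratios and figures were made with Python 3.11.15, pandas 2.3.3, numpy 2.4.6 and matplotlib 3.10.9. Positions are from GENCODE (mm10) and promoters from RefSeq (GRCm38.p6).

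Named were all mitochondrial members, core subunits and tissue-restricted isoforms on fixed lists, per comparison and complex the called nuclear member with the largest change each way, if the higher group averaged 5 FPKM or more, and up to 3 called genes per other list. Assembly factors and copies named beside a small count, and other members said to be so, were chosen after their values were seen. Alternatives were equal totals, equal totals without mitochondrial genes, median-ratio scaling, pseudocounts of 0.1 and 5, no filter or one of at least 5, replicate blocks, array weights, the compared groups alone, leaving out each library, geometric means, and adding near-identical copies, the last chosen after seeing the data. A result for 1 fixed-list gene is not reported here. No count test was run, since the values are not counts.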

Additional observations from a re-analysis of the deposited data

Results flagged for a closer look

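In groups of 4 libraries, a highest or lowest value was marked where its gap to the nearest library passed Dixon's 95% critical value, which chance gives in about 1 in 20 groups. Of 432 member-by-group values 35 were marked, in 32 members, 10 of them in villus epi replicate 2 and 7 in villus EC replicate 4.

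Villus epi replicate 2 stood apart in mt-Nd6, with 3201 FPKM, in mt-Nd6 per mt-Nd5, with 4.26, and in mt-Co3 per mt-Co1, with 0.409. It also stood apart in Cox7a2l per Cox7a2, with 0.162, in the share of Atp5g1 among c-ring genes, with 40.9%, in that of Atp5g3, with 57.3%, and in its column total of 1190720. In villus EC, replicate 3 was highest for mt-Nd4 at 458 FPKM, for mt-Nd5 at 215 FPKM and for the mitochondrial sum at 22388 FPKM. Villus EC replicate 4 was lowest in the complex III ratio of mitochondrial to nuclear levels, at 3.98 by arithmetic and 5.80 by geometric means, and highest in mt-Co3 per mt-Co1, at 3.07. Villus epi replicate 1 had the lowest summed nuclear subunit level of its group, at 56067 FPKM. Crypt EC replicate 1 had the highest complex V ratio, at 7.78 by arithmetic and 7.67 by geometric means. Crypt epi replicate 2 stood apart in mt-Nd4l per mt-Nd4, at 0.641.

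The EC against epi difference itself differed between villus and crypt, by the interaction term, for 0 mitochondrial genes in the positive and 12 in the negative direction, and for 1 and 29 nuclear subunit genes.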

How the results depend on the processing

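Of 6968 values of 52 named members under an alternative, 6513 kept their side of the threshold and, where called, their direction. A further 241 were no longer called, 210 were newly called and 4 reversed. Only values called in at least 1 of both fits could count as reversed. Values called in neither counted as kept even if their sign changed, as for Ndufs1 in the interaction (0.20, and -0.17 without villus epi replicate 2). The reversed log2 differences were mt-Nd2 in crypt EC against crypt epi (0.069 with equal totals, 0.065 with equal totals without mitochondrial genes), and Ndufaf2 (0.50) and Uqcr11 (0.079) in villus EC against villus epi with equal totals. The cause was not tested. With equal totals, calls in crypt EC against crypt epi fell to 0 mitochondrial and 27 nuclear lower (0 and 31 without mitochondrial genes in the total). With equal totals 46 nuclear genes were lower in villus EC against villus epi, 1 mitochondrial and 50 nuclear genes were lower in villus EC against crypt EC (51 nuclear without mitochondrial genes), and 7 nuclear genes were higher in villus epi against crypt epi (10 without mitochondrial genes). The counts over all 14337 genes tested with equal totals were 1432 lower in the crypt and 1902 lower in the villus. Within EC cells 3502 were lower, and within epi cells 1976 were higher. Leaving mitochondrial genes out of the total gave 1429 lower in the crypt, 3574 lower within EC cells and 2214 higher within epi cells, of 14297. Array weights gave 12 mitochondrial lower in the crypt, 2 mitochondrial and 48 nuclear lower in villus EC against crypt EC, 45 nuclear higher in villus epi against crypt epi and 60 nuclear negative in the interaction. Over all 14089 genes these 4 counts were 4751, 4169, 3708 and 3549, against 2824, 2282, 2761 and 2258 in the main fit. The 2 groups alone gave 11 mitochondrial lower in the crypt, 3 mitochondrial and 45 nuclear lower within EC cells and 11 nuclear higher within epi cells. All-gene counts in that setting were 4406 lower in the crypt, 3891 lower within EC cells and 1987 higher within epi cells. Leaving out each library gave 3 to 11 and 0 to 3 mitochondrial lower in the crypt and within EC cells, 18 to 45 nuclear lower within EC cells, 20 to 36 nuclear higher within epi cells and 23 to 48 nuclear negative in the interaction, the highest each time without villus epi replicate 2. Over all 13936 genes tested without that library, 4291 were lower in the crypt and 3848 lower within EC cells. Within epi cells 3554 were higher, and 3352 were negative in the interaction. The labels do not say whether either number pairs the libraries, and correlations in groups of 4 cannot decide it. Deviations of same-numbered libraries correlated at -0.268 to 0.139 over 10 pairs by library number, 1 of them over 0.1. By title number they correlated at -0.268 to 0.170 over 24 pairs, 4 over 0.1. With a replicate block on library number 10 mitochondrial genes were lower in the crypt, 10 nuclear lower within EC cells, 9 nuclear higher within epi cells and 16 nuclear negative in the interaction. The all-gene counts with this block were 2326, 1232, 2255 and 1642 in the same order. The block on title number kept the member counts within 1.5 times. Geometric means over subunits gave ratios of 1.46 in villus EC, 1.20 in crypt EC and 1.08 in crypt epi for complex I, 6.30, 7.60 and 6.65 for complex III, and 11.3, 11.97 and 10.3 with 34.4 in villus epi for complex IV. Adding near-identical copies, chosen after seeing the data, gave mitochondrial shares of 3.01% in villus EC, 4.09% in crypt EC and 4.31% in crypt epi. Depth is unknown, so no counting interval or detection limit can be given.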
